A study of Caenorhabditis elegans with 2 samples.

Results

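The peaks described here are those of the chromatin remodeller CHD-3 that lie in the piRNA cluster domains of Caenorhabditis elegans chromosome IV. A peak was taken as a member when its midpoint fell from 4500000 to 7000000 of IV (the left domain, 2.5 Mb) or from 13500000 to 17200000 (the right domain, 3.7 Mb). Of the 4940 peaks of the deposited list, 395 met this rule, 153 in the left domain and 242 in the right. The other 677 peaks of IV are called the rest of IV. Coordinates are on WormBase release WS220 and count from 1.

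The list comes from a chromatin immunoprecipitation sequencing (ChIP-seq) experiment on hermaphrodite worms of the strain fem-2(b245), whose mutation is in fem-2, a chromosome III gene that acts in sex determination. The labels name 1 ChIP library, made with a polyclonal rabbit antibody against CHD-3, and 1 input DNA library, both with replicate number 2 and both from worms of this same genotype kept at 20 °C. Young adults with a germline are named as the stage, but gravid adults in the growth protocol. Chromatin came from whole worms, which hold germline and somatic nuclei. Values of the input library were not analysed here, so no background stands beside the peaks and the depth behind them is unknown. There is 1 list without a replicate, so no test was made and the comparisons below describe this list only.

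CHD-3 belongs to the Mi-2 family of ATPases. In many animals these enzymes drive NuRD-type complexes, which move nucleosomes and remove acetyl groups from histones. piRNAs are short RNAs that guide the Argonaute protein PRG-1 in the germline, where they act in the silencing of foreign and repeated sequences. In C. elegans each piRNA gene is a very short transcription unit with its own promoter, and great numbers of them are packed into the introns of other genes and the spaces between genes in large domains of IV. In the RefSeq gene table of assembly WBcel235, 14714 of 15363 piRNA genes, or 95.8%, were assigned to IV. In the gene order of IV, 92.2% of them were followed directly by another piRNA gene, and the longest unbroken series had 167. That table is of another assembly than the peaks, so the positions of piRNA genes were not compared with peaks, and the domains are used here as the intervals given above.

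With all peaks counted, the piRNA domains held CHD-3 peaks at close to the density of the rest of IV. They had 63.7 peaks per Mb (395 peaks in 6.2 Mb) against 59.9 per Mb in the rest of IV (677 peaks in 11.3 Mb), a ratio of 1.06 with a 95% exact interval of 0.936 to 1.20. With the windows from 6600001 to 6800000 of the left domain left out, a removal chosen after seeing the data, the ratio turned to 0.962 (interval 0.843 to 1.10). Nothing was left out of the rest of IV, so this removal lowers the ratio by construction. With all windows but only the 50% highest-scoring peaks, the ratio was 1.20 (interval 1.003 to 1.44), an interval that lies above 1. With all windows and all peaks kept, the domains took 36.8% of the peaks of IV (95% exact interval 34.0 to 39.8%) with 35.4% of its span. All intervals given here reflect counting error alone, as if each peak were independent. Peaks lie in groups, so the intervals are too narrow. IV as a whole was denser than the other chromosomes, which averaged 46.8 peaks per Mb. The domains therefore held 8.0% of the whole list (interval 7.25 to 8.79%) on 6.19% of the summed chromosome spans.

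The rest of IV was not uniform, and the domains fell between its parts. From the start of IV to the left domain there were 79.8 peaks per Mb (359 peaks), the highest of the segments of IV. Between the domains there were 47.1 per Mb (306 peaks), and beyond the right domain the last 0.293 Mb held 12 peaks. Density in the domains was 0.799 times that of the segment before the left domain (interval 0.690 to 0.924) and 1.35 times that of the segment between them (interval 1.16 to 1.58). A comparison with the rest of IV as a whole averages over these unlike neighbours.

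The left and right domains had similar densities. The left domain had 61.2 peaks per Mb and the right domain 65.4 per Mb, a ratio of 0.936 with an interval of 0.759 to 1.15. Both were above the segment between them, at 1.30 times (interval 1.06 to 1.58) for the left domain and 1.39 times (interval 1.17 to 1.65) for the right. Without 1 dense stretch described below, which was picked for its density, the left domain had 45.5 peaks per Mb.

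The layout of the peaks inside the domains differed. In windows of 100 kb, the left domain ran from 0 to 26 peaks with a median of 4, and the right domain from 1 to 15 with a median of 6. The 2 fullest of the 25 left windows held 49 of 153 peaks, or 32.0%. The 2 fullest of the 37 right windows held 29 of 242, or 12.0%. The variance of the window counts was 6.55 times their mean in the left domain, 2.01 times in the right domain and 2.84 times in the rest of IV. Leaving out the 2 fullest windows lowers this ratio by construction. With 2 windows left out of each part, whatever its length, it was 2.25 in the left domain, 1.64 in the right domain and 2.47 in the rest of IV. This alternative was chosen after seeing the data.

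**Figure D1:**
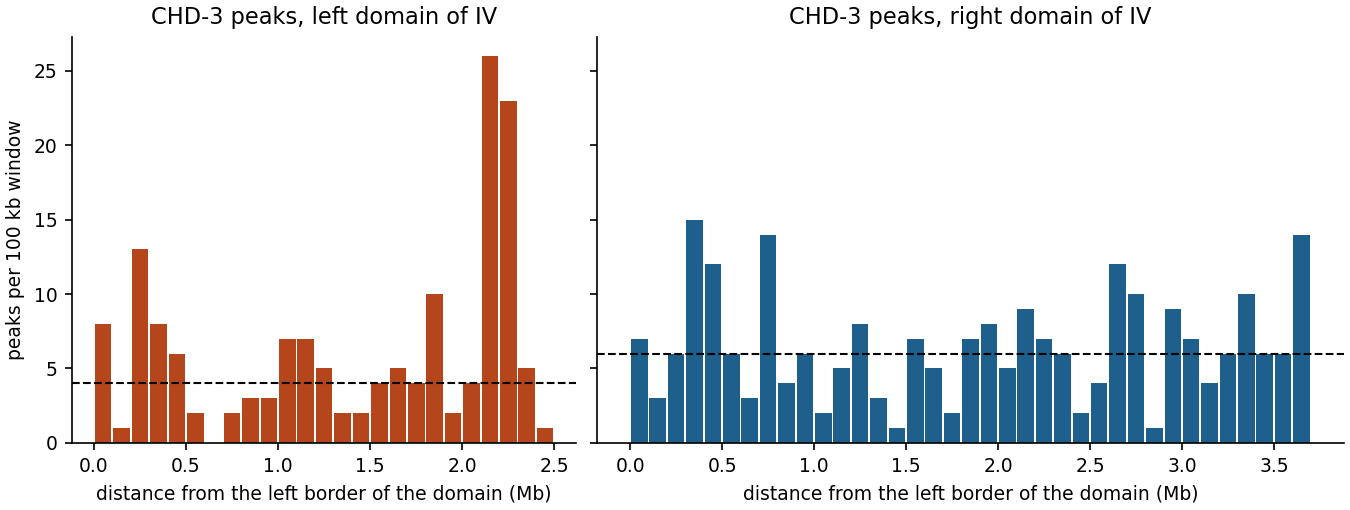
CHD-3 peaks per 100 kb window (vertical axis) against distance from the left border of each domain in Mb (horizontal axis), with the median window as a dashed line. Adjacent windows of 26 and 23 peaks stand out in the left domain, whereas the right domain stays between 1 and 15.

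In bins of 500 kb the same contrast appeared. The left domain held 36 peaks in the bin starting at 4500001 and 10, 23 and 25 peaks in the next ones. Its last bin, from 6500001 to 7000000, held 59. The 7 full bins of the right domain held 43, 33, 19, 29, 29, 36 and 33 peaks in order along the chromosome. The last left bin was also the one with the most sequence inside peaks, 50.9 kb, where the other bins of the left domain had 4.60 to 16.0 kb and the full bins of the right domain 10.1 to 21.1 kb. Its median score of 191.5 was below that of the right-domain bin starting at 15000001, which was 205.5.

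The dense windows of the left domain contained a stretch of closely packed CHD-3 peaks, from 6668330 to 6729290 of IV. It was picked after its values were seen, as the part of the left domain from the first to the last run of 5 or more peaks, where a run chains peaks less than 500 bp apart. Over 60.96 kb it held 42 peaks, 27.5% of the left-domain peaks on 2.44% of the domain's length. Peaks covered 74.4% of the stretch and 25.6% lay between them. Their summed width of 45.4 kb was 50.3% of all sequence inside peaks in the left domain. Windows 6600001 to 6700000 and 6700001 to 6800000, which contain it, ranked 4 and 5 by number of peaks, and 5 and 4 by covered length, among the 941 windows of the list that held a peak.

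The stretch was made of 4 runs and a pair of peaks. The first run, from 6668330 to 6676432, joined 6 peaks with a median width of 1030 bp. A second run of 7 narrower peaks, with a median width of 596 bp, followed from 6682757 to 6687524. The run with most peaks, 14, spanned 6688800 to 6704703, had 93.1% of its length covered and reached a score of 1903. The longest run, from 6710185 to 6729290, measured 19.1 kb, and its 13 peaks were 185 to 5191 bp wide. Scores within that run went from 60.85 to 3100, the value shared by 111 peaks of the list and not exceeded on IV.

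Neighbouring peaks of the stretch were often separated by a few bases. Of its 41 gaps, 20 were shorter than 50 bp, the median gap was 57 bp and the shortest was 1 bp. The 3 longest gaps, of 6324, 3953 and 1275 bp, separated its runs. Of the 42 peaks 14 were 1000 bp wide or more. They lay in series of up to 3, and the longest series of narrower peaks had 9. The widest, from 6714204 to 6719394 (5191 bp, score 3100), was the second widest of IV. It was preceded after 22 bp by the second widest of the left domain, 6710758 to 6714181 (3424 bp, score 2041). It was followed after 3 bp by a peak of 318 bp with a score of 197.4. The median peak of the stretch was 575.5 bp wide with a score of 247.2, and 22 of the 42 scored in the upper 25% of the whole list.

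**Figure D2:**
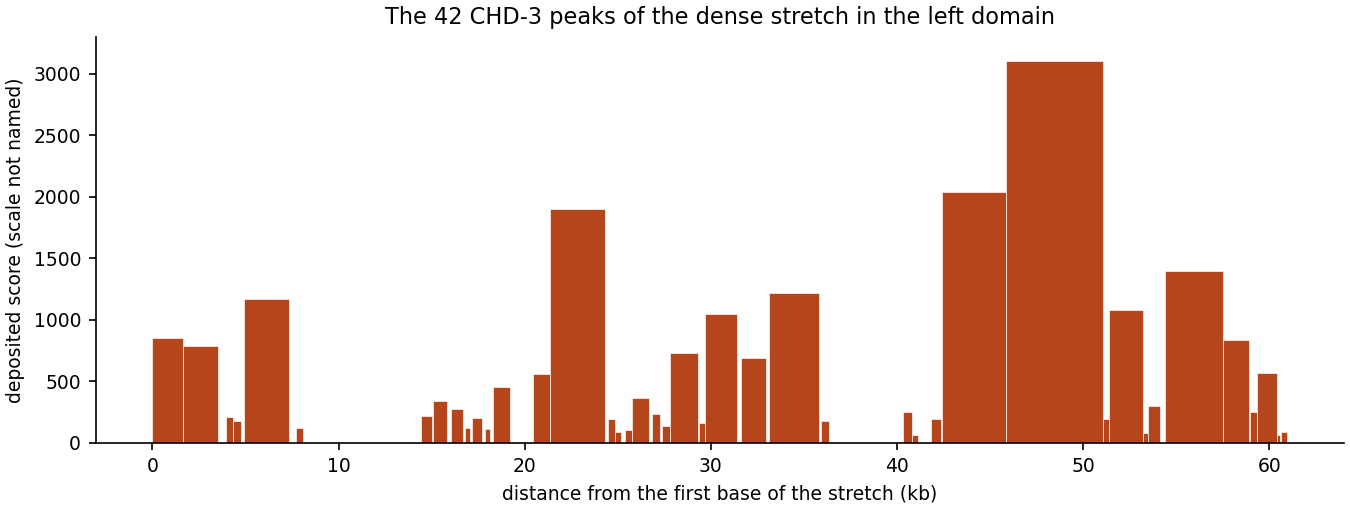
The 42 CHD-3 peaks of the dense stretch of the left domain, each drawn from its first to its last base in kb from the start of the stretch (horizontal axis), with the deposited score as height (vertical axis). The 14 peaks of 1000 bp or more are also the highest, and besides gaps of 6324 and 3953 bp most gaps are too short to be seen.

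The other 111 peaks of the left domain stood at 45.5 per Mb. They had medians of 274 bp in width and 93.95 in score, and 1.84% of its other sequence lay inside peaks. Of these 111 peaks, 100 lay before the stretch and 11 after it. Since the stretch was picked as the densest part of the left domain, these values are lower by construction than those of the whole domain. In an alternative chosen after seeing the data, the 2 fullest of 25 left windows and of 37 right windows were left out. They held 32.0% of the left peaks and 12.0% of the right peaks, so the removal lowers the left-to-right ratio by construction. The left domain then had 45.2 peaks per Mb and the right domain 60.9 per Mb, a ratio of 0.743 (interval 0.582 to 0.944), against 0.936 with all windows. The median width was then 275 bp in the left domain and 332 bp in the right domain, and the median score 94.94 in the left domain and 125.95 in the right.

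Typical widths differed little between the domains and the rest of IV. The median was 329 bp in the domains (interquartile range 227 to 519.5 bp) and 308 bp in the rest of IV (228 to 487 bp). Of the domain peaks, 54.2% were wider than the median of the rest of IV, with an interval of 49.1 to 59.2% that includes 50%. The share was 47.8% (40.9 to 54.9%) among the 50% highest-scoring peaks and 43.3% (37.3 to 49.5%) with peaks less than 500 bp apart merged. The direction thus turned in both, and the interval after merging lies below 50%. The left domain had a median of 326 bp and the right domain one of 333 bp. The rest of IV was mixed in this respect too, with a median of 285 bp before the left domain and 340 bp between the domains.

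Broad peaks took a larger share in the domains than in the rest of IV. Peaks of 1000 bp or more were 48 of 395, or 12.2% (95% exact interval 9.10 to 15.8%), in the domains and 40 of 677, or 5.91% (4.25 to 7.96%), in the rest of IV. They made up 41.8% of the covered length in the domains and 25.5% in the rest of IV. The share of broad peaks was 12.4% in the left domain and 12.0% in the right, against 3.34% before the left domain and 9.15% between the domains. On the other chromosomes it was 9.98%, inside the interval of the domains. At the matching position of the left domain, described below, it was 11.8% on I, 14.0% on II, 4.26% on III and 14.4% on V. At that of the right domain it was 7.93% on I, 11.3% on II, 7.73% on III and 12.6% on V. Shares like those of the domains were thus also found at matching positions of other autosomes. Without the stretch 34 of 353 domain peaks, or 9.63% (6.76 to 13.2%), were broad, and that interval overlaps the one of the rest of IV. This share is lowered by the choice of the stretch, and nothing was left out of the rest of IV.

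The broad peaks were placed differently in the left and right domains. Of the 19 in the left domain, 14 lay in the stretch, and they occupied 5 of its 25 windows of 100 kb, with up to 8 in 1 window. The 29 of the right domain were spread over 19 of its 37 windows, with at most 4 in any. The median width of broad peaks was 1789 bp in the left domain and 1341 bp in the right domain, and their median score was 1214 in the left domain and 1499 in the right domain. The right domain thus had the narrower broad peaks, and the higher median score among them.

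Scores were shifted at the upper end rather than in the middle. The deposited score has no named scale, and the values are the authors' own. Its median was 121.4 in the domains and 109.7 in the rest of IV, and 53.9% of domain peaks (48.9 to 58.9%) lay above the median of the rest of IV. With close peaks merged this was 49.6%. The upper quartile was 299.4 in the domains and 201.4 in the rest of IV. Domain peaks reached the upper 25% of the whole list, a score of at least 242.0, in 29.4% of cases (24.9 to 34.1%), and peaks of the rest of IV in 20.8% (17.8 to 24.1%). In the right domain the share was 31.0% (25.2 to 37.2%) and in the left 26.8% (20.0 to 34.5%). It was 15.9% (12.3 to 20.1%) before the left domain and 26.5% (21.6 to 31.8%) between the domains, so the share in the domains was close to that between them and above that before them. On the other chromosomes the share was 25.3%, inside the interval of the domains. Without the stretch the 2 domains together had 26.6% (22.1 to 31.6%), and that interval overlaps the one of the rest of IV. The left domain without the stretch had 17.1% (10.6 to 25.4%). Both values are lowered by the choice of the stretch.

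Among the weakest calls the domains and the rest of IV overlapped within counting error. The lowest 25% of the whole list held 27.6% of domain peaks (23.2 to 32.3%) and 24.1% of those in the rest of IV (20.9 to 27.5%). When the peaks of IV were ordered by score and cut into 4 equal groups, the domains had 27.6%, 18.7%, 23.5% and 30.1% of their peaks in the groups from lowest to highest. The rest of IV had 23.5%, 28.7%, 25.8% and 22.0%. The second group, with scores from 72.21 to 112.5, was the one in which the domains were least represented. In both domains this group was the smallest, at 20.9% of left peaks and 17.4% of right peaks.

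Width and score rose together in the domains as in the rest of IV. Spearman's rho across peaks, which are not independent replicates, was 0.88 in the left domain, 0.89 in the right domain and 0.86 in the rest of IV. Below the highest group of score the widths were close. In the lowest group of score the median width was 201 bp in the domains and 200 bp in the rest of IV. In the second group it was 273 bp in the domains and 270 bp in the rest of IV, and in the third 378 bp in the domains and 396 bp in the rest of IV. In the highest group the domain peaks were wider, with a median of 848 bp against 748 bp in the rest of IV. That group spans scores from 231.5 to 3100, so peaks within it were not of like score. There the left domain had 913 bp over 42 peaks and the right domain 765 bp over 77. The left value includes peaks of the dense stretch, 22 of which scored at least 242.0, and was not computed without them.

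**Figure D3:**
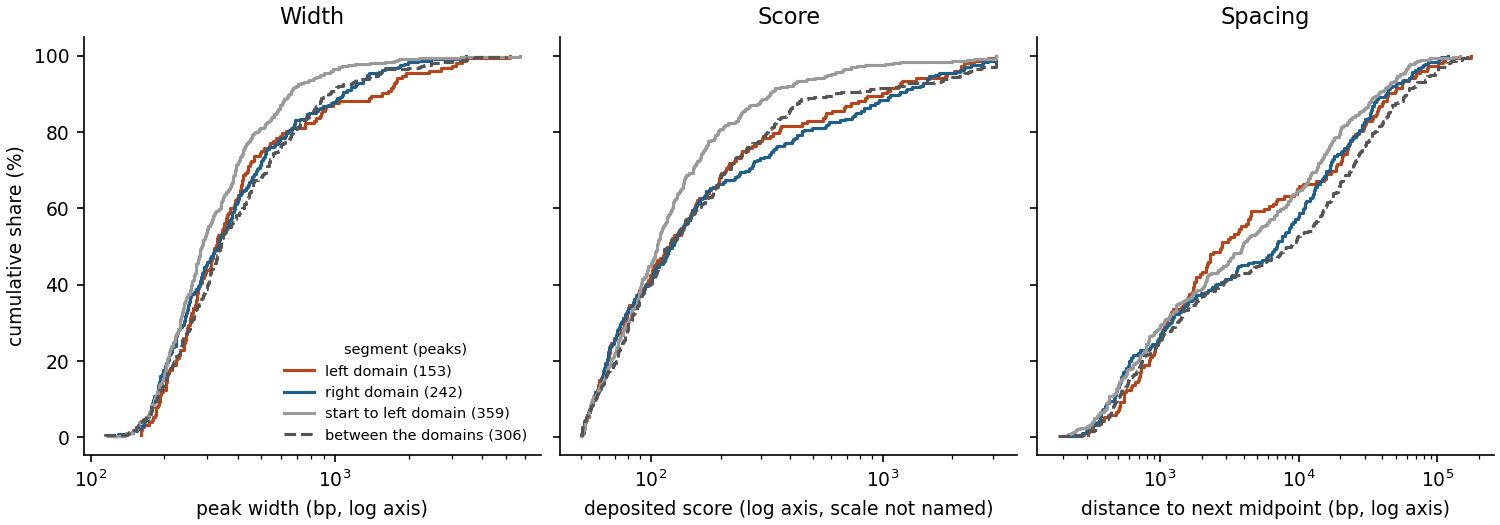
Cumulative share of peaks (vertical axis, %) by width in bp, by deposited score and, for neighbouring pairs inside a segment, by distance to the next midpoint in bp, all on log axes, for the left domain, the right domain and the segments before and between them. The segment before the left domain has the narrowest and lowest-scoring peaks. With its dense stretch included, the left domain has the shortest distances around the median.

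Median spacing differed among the segments of IV. The median distance between neighbouring midpoints was 4340.5 bp in the domains and 5183 bp in the rest of IV. It was 2766.5 bp in the left domain and 6974.5 bp in the right domain, against 3883 bp before the left domain and 8749 bp between the domains. The short median of the left domain depended on its dense stretch. Without the stretch it was 9645.5 bp over 109 pairs, a value raised by the choice of the stretch. Midpoints lay within 2000 bp of each other in 156 of 393 domain pairs, or 39.7% (34.8 to 44.7%), and in 258 of 674 pairs of the rest of IV, or 38.3% (34.6 to 42.1%). The share was 42.8% in the left domain and 37.8% in the right, with overlapping intervals of 34.8 to 51.0% and 31.6 to 44.2%. With the 2 fullest windows of each domain left out, the share was 30.4% in the left domain (21.7 to 40.3%) and 36.2% in the right (29.7 to 43.1%). Its order thus turned while the intervals overlapped. The windows left out held a larger part of the left peaks, so the left share is lowered more by construction.

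Regions of chained peaks had similar densities in the domains and in the rest of IV, but longer runs held more of the domain peaks. Chaining peaks less than 500 bp apart gave 270 regions in the domains, 43.5 per Mb, and 486 in the rest of IV, 43.04 per Mb. Single peaks made up 52.4% of domain peaks and 55.1% of those of the rest of IV. Runs of 5 or more peaks held 26.1% of the left-domain peaks, 7.85% of the right-domain peaks and 9.16% of those in the rest of IV, where there were 9 such runs with 62 peaks. All 4 such runs of the left domain, with 40 peaks, are those by which the stretch was picked, and it had none elsewhere. The run of most peaks in the right domain, from 13929182 to 13933161, joined 8 peaks over 3.98 kb. The widest of its peaks measured 562 bp and their scores ran from 93.81 to 328.7, so it lacked the broad peaks of the left stretch. The longest run of the right domain, from 14476135 to 14481170, did consist of broad peaks. It was a pair, of 3431 and 1601 bp. The rest of IV reached 10 peaks in a run.

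Both domains also had long stretches without CHD-3 peaks. The longest in the left domain ran for 175.4 kb from 5090261 to 5265621, and accounts for its empty window and for part of its sparsest bin. The longest in the right domain ran for 117.7 kb from 14622638 to 14740321. Gaps of more than 50 kb between peaks made up 44.2% of the length of the left domain and 38.3% of the right. They made up 34.9% of the segment before the left domain and 51.5% of the segment between the domains. Each domain had 4 gaps of more than 100 kb.

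The 3 highest-scoring peaks of the right domain were all at the shared value of 3100. The widest of them, from 14476135 to 14479565, measured 3431 bp and had rank 6 by width on IV. After 4 bp it was followed by a peak of 1601 bp with a score of 2720. Another of 3278 bp lay from 15373875 to 15377152, and one of 1298 bp from 14779193 to 14780490, between peaks scored 1335 and 880.2. The third widest of the right domain lay from 13921795 to 13924261 (2467 bp, score 2680). In the left domain the highest scores after that of the stretch were at 6468892 to 6469875 (984 bp, score 2847) and 4921339 to 4923114 (1776 bp, score 2490). The third widest left peak, from 6357778 to 6361100 (3323 bp, score 2242), bordered a gap of 107.8 kb that ended at the peak scored 2847. Strong peaks of the left domain thus also occurred outside the stretch. Of all domain peaks 4, or 1.01%, had the score 3100, against 11, or 1.62%, in the rest of IV.

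The borders of the domains did not cut through groups of peaks. At the left border of the left domain the nearest peaks were 4500759 to 4501026 inside (score 88.65) and 4477278 to 4477871 outside (score 469.7). At its right border they were 6914258 to 6914417 inside (score 55.98) and 7022750 to 7023173 outside (score 186.1). At the left border of the right domain they were 13500017 to 13500405 inside (score 227.8) and 13464776 to 13465012 outside (score 71.45). At its right border they were 17178311 to 17178690 inside (score 149.8) and 17218378 to 17218638 outside (score 92.00).

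The domains were also set beside like positions on the other autosomes, which carry few piRNA genes, from 78 on III to 202 on V. The left domain spans 25.7 to 40.0% of the length of IV and the right domain 77.2 to 98.3%, within its right arm. At the position of the left domain, IV had 61.2 peaks per Mb (95% exact Poisson interval 51.9 to 71.7). The same position had 51.1 per Mb on I, 39.6 on II, 47.7 on III and 53.6 on V (interval 45.6 to 62.6). The left domain was the densest of the 5, although its interval overlaps those of I, III and V. Without the dense stretch, picked for its density, it had 45.5 per Mb, below I, III and V, where nothing was left out. With the stretch kept, the left domain was at 0.999 times the mean of its own chromosome, below V at 1.31 times.

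At the position of the right domain, IV with 65.4 peaks per Mb (57.4 to 74.2) was close to III with 66.5 (57.5 to 76.6). It was above I with 51.4, II with 44.2 and V with 39.4 per Mb, of which only the interval of I, reaching 59.95, overlaps that of IV. Relative to the own chromosome the right domain was at 1.07 times, against 0.960 to 1.19 on the others. Its peaks had the largest median width of the 5, 333 bp against 280.5 to 306.5 bp, and the largest median score, 123.3 against 105.6 to 117.9. At the position of the left domain the median width was 326 bp on IV, against 324.5 to 395 bp on the others, and the median score was 120.4 on IV, against 120.4 on I and 128.1 to 151.0 on the other 3. The fullest window there held 26 peaks on IV, against 32 on V. The 2 fullest windows held 32.0% of the peaks of the left domain and 26.6 to 31.2% of those at this position on the other autosomes, so concentration of this degree was not limited to the left domain.

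**Figure D4:**
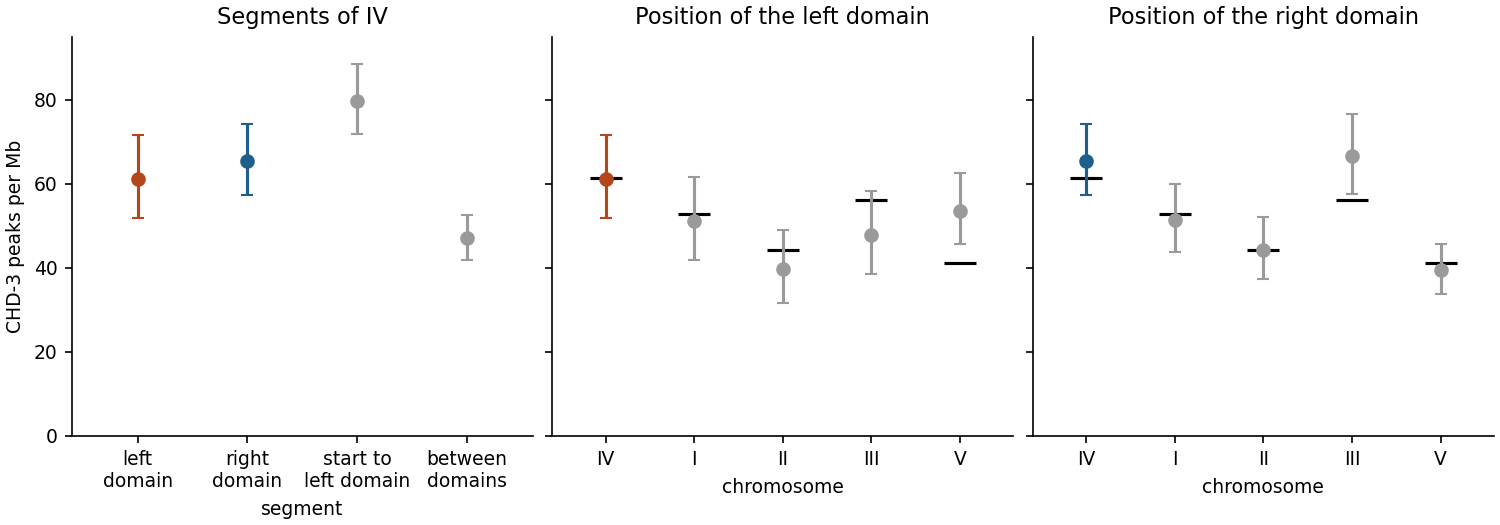
CHD-3 peaks per Mb (vertical axis) with 95% exact Poisson intervals for segments of IV (left panel) and for the positions of the left and right domains on each autosome (other panels), where black dashes mark the mean of the whole chromosome. The domains lie at 61.2 and 65.4 per Mb, between the neighbouring segments of IV at 79.8 and 47.1.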

How the data were processed

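Members, borders and lists were chosen with earlier results of these data known. The authors' deposited peak list of the ChIP sample was analysed; peaks were called by MACS on WormBase WS220, per the file headers, and BWA and ce10 are named in the submitters' processing notes. Tool versions, the calling threshold, the control and any pooling: not given in the sources used here. The authors' deposited score is on an unnamed scale. Its lowest value is 50 and 111 peaks share 3100. It was used only within this list, and a list with another threshold would hold other weak peaks. Sequencing depth is unknown. WS220 lengths were not used, so IV was taken to end at its last peak (span 17.49 Mb). Genome sequence was not used here.

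Density, width, score and spacing were computed with Python 3.11.15, pandas 2.3.3 and scipy 1.17.1. Spacing used pairs inside 1 segment. Shares have exact (Clopper-Pearson) intervals, density ratios have exact intervals conditional on the summed count, and densities have exact Poisson intervals, all at 95%. The code was tested on simulated data. Peaks named are, per domain, the 3 highest by score, the 3 widest, the runs with most peaks, the longest runs and gaps and the 2 fullest windows. As alternatives, only the 50% highest-scoring peaks were kept, or other choices were changed: merging below 500 bp, borders moved by 250 kb, membership by overlap, and neighbours within 1000 or 5000 bp.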

Additional observations from a re-analysis of the deposited data

How the results depend on the processing

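No paired analysis was possible because ChIP and input have 1 sample each and only the ChIP sample gave values. Of 75 alternative values, 42 stayed inside the interval of the reported value without crossing an even split or ratio of 1. Another 25 moved outside it and 8 turned direction. The causes were not tested. Membership by any overlap changed nothing. When only the 50% highest-scoring peaks were kept, domain peaks wider than the median of the rest of IV turned to 47.8% (reported 54.2%) and those scoring above it moved to 58.9% (reported 53.9%). There the density ratio was 1.20 (interval 1.003 to 1.44). The share of neighbours within 2000 bp became 33.2% in the domains, 24.8% in the rest of IV and 31.5% in the right domain. With peaks less than 500 bp apart merged, 43.3% of domain regions were wider than the median of the rest of IV and 49.6% scored above it, both turned. Close neighbours then fell to 12.7% in the domains, 11.2% in the rest of IV, 17.0% in the left domain and 10.1% in the right, as merging removes close pairs by construction. With borders 250 kb outward, left peaks wider than the right median, and those scoring above it, both turned to 53.6%, where 47.1% for width and 47.7% for score are reported. Without windows 6600001 to 6800000, chosen after seeing the data, the density ratio of domains to the rest of IV turned to 0.962, and that of left to right moved to 0.691. Nothing was left out elsewhere, so both ratios fell by construction. Domain peaks wider than the median of the rest of IV fell to 50%, an even split that is counted here as not turned. Of the left peaks then 34.6% were wider and 36.5% scored higher than the right median, and 30.4% of left pairs were close. With the 2 fullest windows of each domain left out, also chosen after seeing the data, the density ratio of domains to the rest of IV turned to 0.912 and that of left to right moved to 0.743. Domain peaks wider than the median of the rest of IV then turned to 49.5% and close domain pairs were 34.3%, while the left values stayed as just given. The rest of IV was kept whole here too, so the ratio to it fell by construction. With its own 2 fullest windows left out, the rest of IV had 57.6 peaks per Mb, against 45.2 in the left domain and 60.9 in the right domain. By definition, neighbours within 1000 bp were fewer, at 26.2% in the domains, 27.2% in the rest of IV, 25.7% in the left domain and 26.6% in the right. Within 5000 bp they were 51.1% in the domains, 49.6% in the rest of IV, 59.2% in the left domain and 46.1% in the right. Without read counts, the effect of depth on weak peaks could not be examined.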

Other observations

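Peaks separated by only a few bases were more frequent in the domains than in the rest of IV. Gaps of less than 50 bp between the ends of neighbouring peaks made up 50 of 393 pairs, or 12.7%, in the domains and 43 of 674, or 6.38%, in the rest of IV. They were 17.1% of pairs in the left domain, where 20 of the 26 such gaps lay in the stretch from 6668330 to 6729290, and 9.96% in the right domain. No peaks of IV touched or overlapped within these segments. Gaps of less than 500 bp were 31.8% of domain pairs and 28.3% of pairs in the rest of IV. The share of very short gaps bears on how many peaks are counted in a stretch, and with peaks less than 500 bp apart merged the left domain had 40.4 regions per Mb and the right domain 45.7.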
